A study of Canis lupus familiaris and Dasypus novemcinctus and Ornithorhynchus anatinus with 3 samples.

Results

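The endometrium, the lining of the uterus, of a pregnant platypus (Ornithorhynchus anatinus, an egg-laying mammal) was represented by 1 messenger RNA library, and all of its gene lines were ranked by their reads. The table held 18481 gene lines and 2243556 reads, out of 50106 gene lines in the 3 tables of the series, which also covers pregnant dog and armadillo. Of the platypus lines, 7334 (39.7%) had 10 or more reads, 3319 had 1 to 9 reads and 7828 (42.4%) were listed at 0. The group is defined by species, tissue and pregnancy, and the labels give no stage, age, treatment or number of animals. With 1 library no difference between genes or conditions has a replicate check and no p-value was computed.

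Monotremes such as the platypus lay eggs after a short stay of the embryo in the uterus. The uterine glands of monotremes are known to secrete nutritive fluid that the embryo takes up through its coats, and to supply the shell. Secreted proteins are threaded into the endoplasmic reticulum (ER), folded there with help from chaperones and disulfide isomerases, and passed through the Golgi. Motile cilia line parts of the reproductive tract in many vertebrates, and oestrogen and progesterone act on the uterus through nuclear receptors.

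Levels are given as CPM, the reads of a line per 1000000 reads of the column. These are shares of reads and favour long genes. For some comparisons between genes, reads were also divided by the length of the dog gene model with the same symbol, as CPM per kb. Comparisons given without CPM per kb are by reads only and were not corrected for length. Dog lengths stood in because lengths of the platypus models were not used here. That stand-in was found for 4381 of 5181 gene symbols with 10 or more reads, and its error is not known. Intervals are exact 95% Poisson intervals and cover counting error only. A line at 10 reads stood at 4.46 CPM (95% interval 2.14 to 8.20), and a count of 0 allows up to 3 reads, or 1.34 CPM, as a limit on the upper side only. The interval used for the other lines reaches 1.64 CPM for a line at 0.

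A line at 0 was not taken as absence. Among the cytosolic ribosomal proteins, which every cell uses, 8 of 49 lines were listed at 0, including RPS2, RPS3 and RPS7. The other 41 had between 349 and 17287 reads, so that no ribosomal line lay between 0 and 349 reads. The general cell genes HSPD1 (a mitochondrial chaperone), NPM1 (nucleophosmin) and PSMB1 (a proteasome subunit) were also at 0. Gene symbols were carried by 11208 lines and 76.0% of reads. Lines without a name held 22.3% of reads and made up 7 of the 30 highest lines, so that part of the abundant content has no identity here. The highest of them were ENSOANG00000013665 at 7383 CPM and ENSOANG00000006440 at 6806 CPM.

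The abundance ranking was led by proteins of the ER. RCN2 (reticulocalbin 2, a calcium-binding protein of the ER; ENSOANG00000002100) had the most reads of any line, 43072, or 19198 CPM (95% interval 19017 to 19380). The disulfide isomerase PDIA3 (ENSOANG00000009688) followed at 15336 CPM, PDIA4 at 13819 and PDIA6 at 12419. The elongation factors EEF1A1 (13490) and EEF2 (9203), the actins ACTA2 (11301) and ACTB (9784), the cytosolic chaperone HSPA8 (8843) and the ribosome-bound protein GNB2L1 (7809) filled the rest of the first 10 ranks. These 10 lines held 12.1% of reads (exact binomial 95% interval 12.1 to 12.2), and 194 lines held 50% of them. Per kb, RCN2 was again first of the 4381 genes with a length, at 17776 CPM per kb. It was followed by the ribosomal protein gene RPL36 at 13114 and by S100A13, a small calcium-binding protein exported without a signal peptide, at 11494 CPM per kb.

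**Figure D1:**
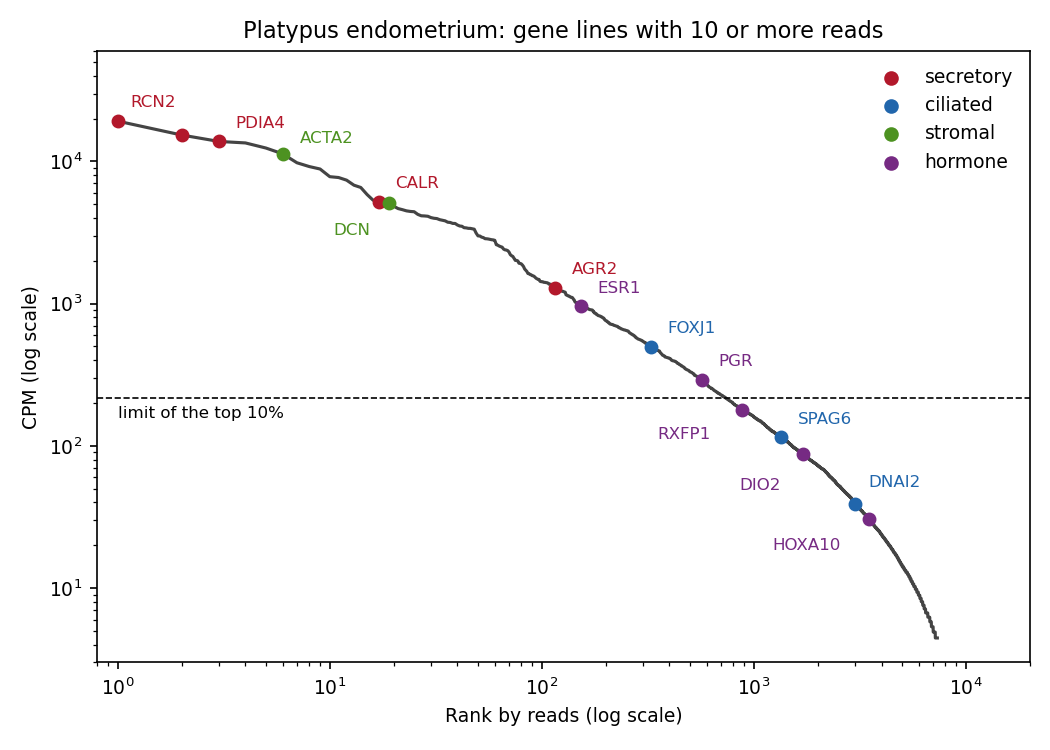
CPM of each platypus gene line with 10 or more reads against its rank by reads, both on log scales, with selected secretory, ciliated, stromal and hormone genes coloured. RCN2 stands first at 19198 CPM, FOXJ1 and PGR lie above the limit of the top 10% (218 CPM, dashed) and RXFP1, SPAG6 and DNAI2 below it.

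The other lines among the 30 highest with a name added matrix, transport and metabolic genes. The ER group continued with CALR (calreticulin, a lectin chaperone) at 5191 CPM, PPIB (cyclophilin B, a prolyl isomerase) at 4660 and HSPA5 (BiP, the main ER chaperone) at 4491. Matrix and contractile genes followed with DCN (decorin) at 5099, SPARC (osteonectin) at 4846 and TPM1 (tropomyosin) at 4579 CPM. The glutamate transporter gene SLC1A1 stood at 3721 CPM and the glycolytic enzyme gene ENO1 at 3820. Translation was represented by EIF4G2 (3963), TPT1 (4027) and 9 ribosomal protein genes led by RPS3A (7705) and RPL8 (5183).

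The secretory lists were described by their counts. As background, 46.2% of lines with a gene symbol had 10 or more reads and 4.96% reached the top 10%, of lines with 10 or more reads, which began at 218 CPM and held 734 lines. The median over all lines with a gene symbol was 2.67 CPM, and 35.0% of them were listed at 0. Of 173 members of the secretory lists with a line, 120 (69.4%) had 10 or more reads and 55 (31.8%) reached the top 10%. For the general cell genes, a list of genes that nearly every cell uses, 20 of 32 lines (62.5%) reached it, with a median of 458 CPM.

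Disulfide isomerases and oxidases make and rearrange the bonds that hold secreted proteins in shape. They had 15 of 17 lines (88.2%, against 46.2% of all symbol lines) at 10 or more reads. In the top 10% were 9 (52.9%, against 4.96%), and the median was 318 CPM. PRDX4 (peroxiredoxin 4, which uses peroxide to form disulfides) stood at 2787 CPM and AGR2 (a disulfide isomerase of mucous epithelia) at 1283. ERP29 (an ER chaperone) stood at 837, ERP44 (which retains proteins in the ER) at 701 and TXNDC5 at 419. P4HB, the founding disulfide isomerase, had only 51 reads (22.7 CPM, 95% interval 16.9 to 29.9), and ERP27 and TMX2 were listed at 0. Per kb the family spread from 9161 CPM per kb for PDIA3, 7227 for PDIA4 and 6907 for PDIA6 through 2204 for AGR2 to 13.9 for P4HB and 2.82 for QSOX1, a sulfhydryl oxidase. The order of PDIA3, PDIA4 and PDIA6 was therefore the same with and without division by length.

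ER chaperones and calcium-binding proteins had 16 of 23 lines (69.6%, against 46.2% of all symbol lines) at 10 or more reads. In the top 10% were 11 (47.8%, against 4.96%), and the median was 168 CPM. CANX (calnexin, the membrane-bound partner of calreticulin) stood at 1265 CPM, RCN1 at 824 and DNAJB11 (a co-chaperone of BiP) at 820. SERPINH1, the collagen chaperone HSP47, stood at 629. Within the reticulocalbin family, RCN2 stood at 17776 CPM per kb, RCN1 at 841 and CALU (calumenin) at 337, while RCN3 and SDF4 were listed at 0. The part played by the gene models and the stand-in lengths in this spread was not tested.

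**Figure D2:**
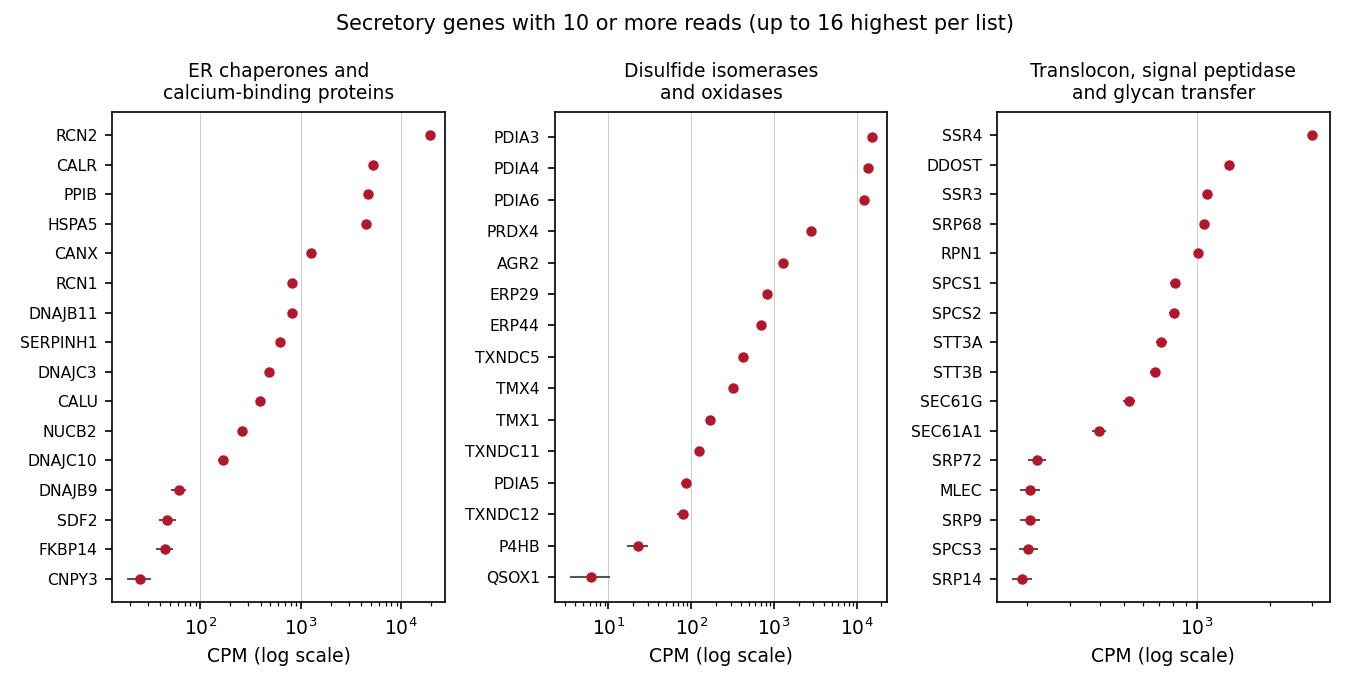
CPM (log scale) of the highest secretory genes with 10 or more reads in 3 lists, each point a gene and each bar its exact 95% Poisson interval, which is narrower than the point where not visible. RCN2, PDIA3, PDIA4 and PDIA6 stand at 12419 CPM or more in their panels and SSR4 leads the third panel at 2996 CPM.

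For the machinery that brings new chains into the ER, the list median was 205 CPM. Of its 27 lines, 25 (92.6%, against 46.2% of all symbol lines) had 10 or more reads, and 12 were in the top 10%. SSR4, a subunit of the translocon-associated complex, stood at 2996 CPM and SSR3 at 1106. DDOST (1355), RPN1 (1017), STT3A (716) and STT3B (674) belong to the enzyme that adds N-glycans. SRP68 (1072) is part of the signal recognition particle, SEC61A1 (397) and SEC61G (525) form the channel, and SPCS1 (816) and SPCS2 (809) belong to the signal peptidase.

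ER to Golgi transport genes had 25 of 31 lines (80.6%, against 46.2% of all symbol lines) at 10 or more reads. In the top 10% were 15 (48.4%, against 4.96%), and the median was 164 CPM. The highest by reads were ARF4, a small GTPase of the Golgi, at 1751 CPM, RAB1A at 1372 and SEC13, a coat protein, at 1211. The cargo genes TMED2 (1127), LMAN1 (722) and KDELR2 (659), which returns escaped ER proteins, followed. The coat gene COPE stood at 1117 and COPB1 at 679, whereas COPA, another subunit of that coat, was listed at 0.

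Genes of ER stress and ER-associated degradation had 16 of 18 lines (88.9%, against 46.2% of all symbol lines) at 10 or more reads. In the top 10% were 7 (38.9%, against 4.96%), and the median was 105 CPM. VCP, the ATPase that pulls misfolded proteins out of the ER, stood at 1719 CPM. DERL3, a channel component induced in secretory cells, stood at 875 and XBP1, the transcription factor that expands the ER, at 734. HERPUD1 (468) and ATF4 (415) are also switched on by ER stress. Among the sensors, EIF2AK3 stood at 110, ERN1 at 64.2 and ATF6 at 27.6 CPM.

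Of 62 gland and mucosal products listed, 31 had a line and 12 of these (38.7%, against 46.2% of all symbol lines) had 10 or more reads. In the top 10% was 1 of the 31 (3.23%, against 4.96%), CTSZ (the lysosomal protease cathepsin Z) at 388 CPM, and the list median was 1.34 CPM. CTSB (cathepsin B) stood at 139 CPM, CLU (clusterin) at 74.0 and WFDC2, a protease inhibitor of the female tract, at 25.9. ACP5 stood at 27.6 and PRSS8 (prostasin) at 26.7. SPP1 (osteopontin), PIGR (the antibody transporter) and LGALS3 were listed at 0. Of 25 egg, yolk and shell genes listed, 19 had no line under the symbols searched, and all shell proteins of the list were among these. The 6 with a line (MTTP, ZP1, ZP3, ZP4, ALB and APOA1) were at 0. The list therefore could not describe shell proteins. Vitellogenin symbols were also among those without a line.

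Calcium handling is used in other egg-layers for shell mineral. Its list had 12 of 21 lines (57.1%, against 46.2% of all symbol lines) at 10 or more reads. None was in the top 10%, and the median was 13.4 CPM. STIM1, a calcium sensor of the ER, stood at 173 CPM, ATP2C1 (a Golgi calcium pump) at 125 and CA2 (carbonic anhydrase 2) at 108. CALB1, the calcium buffer of the avian shell gland, was listed at 0, and the plasma membrane pump gene ATP2B1 had 1 read.

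By reads, the ciliary lists were led by a transcription factor of ciliated cells. FOXJ1, which switches on the genes of motile cilia (ENSOANG00000014384), had 1118 reads, or 498 CPM (95% interval 470 to 528), and was the 1 cilia regulator in the top 10%. The other regulators were low by reads: MYB stood at 16.5 CPM, RFX1 at 13.8, E2F4 at 10.7, RFX3 at 4.46 and STIL at 4.46. SASS6, a centriole protein, had 36 reads. CCNO, needed to make many centrioles, had 2 reads, TP73 had 4 and RFX2 had 4. The list had 7 of 17 lines at 10 or more reads (41.2%, near the 46.2% of all symbol lines). The list median was 2.67 CPM.

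The axoneme is the moving core of the cilium. Radial spoke, central pair and other axonemal genes had 29 of 55 lines at 10 or more reads, and 13 at 0. Their share was 52.7%, against 46.2% of all lines with a gene symbol. In the top 10% was 1 of the 55 (1.82%, against 4.96%). CAPS (calcyphosine, abundant in ciliated cells) stood at 225 CPM and RSPH1, a radial spoke head protein, at 154. The central pair gene SPAG6 stood at 115, IQUB at 115 and WDR66 at 103. GAS8 (53.9) belongs to the dynein regulator and CCDC40 (28.1) to the ruler that spaces the arms. SPAG17, another central pair gene, had 15 reads, the tektin genes TEKT1, TEKT2 and TEKT3 had 3, 8 and 2 reads, and SPAG16 and CCDC113 were listed at 0.

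Of 27 dynein arm lines, 12 (44.4%, near the 46.2% of all symbol lines) had 10 or more reads. None was in the top 10%, and 12 were at 0. By reads the heavy chain genes DNAH10 (164 CPM), DNAH11 (111) and DNAH12 (46.4) were among the highest. Divided by their great length they stood at 17.9, 8.14 and 4.55 CPM per kb. The light chain genes DNALI1 and DNAL1 stood at 56.1 and 46.4 CPM per kb and the intermediate chain gene DNAI2 at 21.4. ARMC4 (55.3 CPM) and HEATR2 (50.8) help to assemble or dock the arms. The heavy chains DNAH5, DNAH7 and DNAH8 and the intermediate chain DNAI1 were listed at 0. FOXJ1 itself stood at 395 CPM per kb, above every dynein arm gene with a length.

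Genes of ciliary transport and of the ciliary base serve motile and primary cilia alike. They had 33 of 47 lines at 10 or more reads (70.2%, against 46.2% of all symbol lines) and a median of 13.4 CPM. HSPB11 (IFT25), a transport subunit, stood at 255 CPM, IFT88 at 193 and IFT46 at 163. Per kb, HSPB11 stood at 481 CPM per kb, above FOXJ1 at 395. The retrograde motor gene DYNC2H1 stood at 53.5. Over all ciliary lists, 81 of 146 lines (55.5%) had 10 or more reads and 3 (2.05%, against 4.96% of all lines with a gene symbol) reached the top 10%: FOXJ1, CAPS and HSPB11. This count depended on the minimum, and was 5, 1 and 10 with minimums of 5, 20 and 1 reads.

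**Figure D3:**
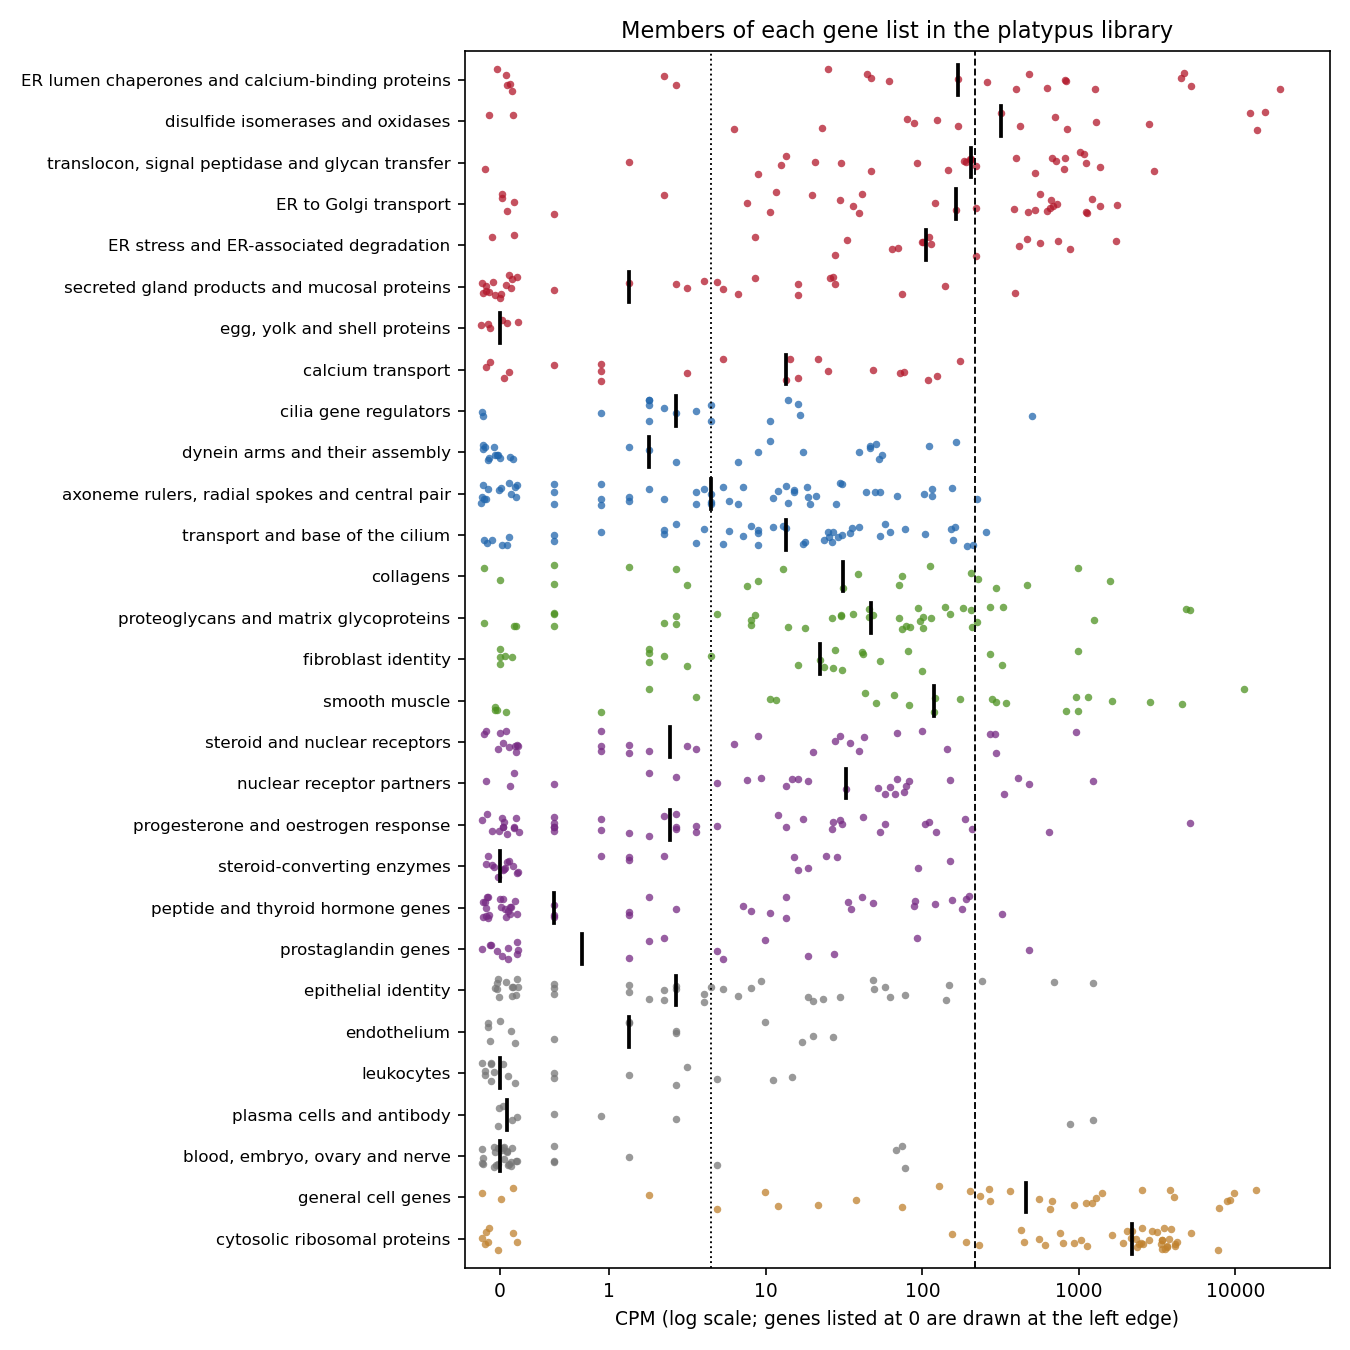
CPM (log scale) of every list member with a line, each point a gene, with the median of each list as a black bar, genes at 0 at the left edge, and lines at 10 reads (dotted) and at the limit of the top 10% (dashed). The ER lists have medians of 105 to 318 CPM, whereas the egg and yolk, steroid enzyme, leukocyte and blood or embryo lists have medians of 0.

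Stromal content comprised matrix and muscle genes. Of 114 stromal members with a line, 81 had 10 or more reads (71.1%, against 46.2% of lines with a gene symbol). In the top 10% were 24 (21.1%, against 4.96%). Among the 57 stromal members with a length and 10 or more reads, 17 reached the top 10% by reads and 11 per kb. In a bulk library, fewer cells of a type and less RNA per cell cannot be told apart, and the sampled tissue may include muscle of the uterine wall, which was not tested.

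Proteoglycans and matrix glycoproteins had 33 of 42 lines (78.6%, against 46.2% of all symbol lines) at 10 or more reads. In the top 10% were 6 (14.3%, against 4.96%), and the median was 47.0 CPM. DCN and LUM (lumican, at 1250 CPM) bind and space collagen fibrils, as do OGN (osteoglycin, 207), DPT (dermatopontin, 204) and BGN (biglycan, 181). SPARC stood at 5239 CPM per kb, LUM at 1076, DPT at 337 and OGN at 231. Basement membrane genes were also present, with LAMC1 (a laminin chain) at 325 CPM, NID2 at 223 and LAMA5 at 114. LAMB1, another laminin chain, had 18 reads, and LAMB2 was listed at 0. The microfibril gene FBN1 had 6 reads and POSTN (periostin) 18.

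Collagens had 14 of 21 lines (66.7%, against 46.2% of all symbol lines) at 10 or more reads. In the top 10% were 5 (23.8%, against 4.96%), and the median was 31.2 CPM. COL1A2, a chain of the main fibrillar collagen, stood at 1568 CPM (95% interval 1517 to 1621), whereas COL1A1, its partner in the same fibre, had 17 reads, or 7.58 CPM (95% interval 4.41 to 12.1). Type VI collagen, which forms beaded filaments around cells, was covered by COL6A3 (991), COL6A1 (467) and COL6A2 (70.4). COL3A1 stood at 294 CPM and COL5A1 at 226. COL4A1 and COL4A2, partners in the basement membrane, stood at 74.0 and 12.9. Per kb, COL6A1 stood at 168, COL3A1 at 107 and COL6A2 at 56.3 CPM per kb. The unequal reads of partner chains were a feature of these lines, and the part played by incomplete gene models was not tested.

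Smooth muscle genes had 20 of 27 lines (74.1%, against 46.2% of all symbol lines) at 10 or more reads. In the top 10% were 11 (40.7%, against 4.96%), and the median was 119 CPM. ACTA2 (smooth muscle actin; ENSOANG00000000460) stood at 11301 CPM, TPM1 at 4579, MYL9 (the regulatory light chain) at 2862, CNN1 (calponin) at 1148 and DES (desmin) at 992. MYH11, the smooth muscle myosin, stood at 277 CPM and MYLK, the kinase that starts contraction, at 173. Per kb the contractile genes spread from 2675 for MYL9, 1284 for CNN1 and 894 for TPM2 to 44.5 for MYH11 and 31.1 for MYLK. ACTG2, the other smooth muscle actin, had 184 reads (82.0 CPM), and because actin genes are nearly identical, reads of ACTA2, ACTG2, ACTB and ACTG1 may have been assigned among them. MYOCD, CSRP1 and the pericyte gene RGS5 were listed at 0.

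Fibroblast identity genes had 15 of 25 lines (60%, against 46.2% of all symbol lines) at 10 or more reads. In the top 10% were 3 (12%, against 4.96%), and the median was 22.3 CPM. VIM (vimentin) stood at 324 CPM, the nuclear receptor NR2F2, which marks uterine stroma, at 272, MMP2 (a matrix protease) at 99.4 and TIMP3 (a protease inhibitor) at 81.1. BMP2 (53.5), IGF1 (41.0) and HOXA10 (30.8) are growth factor and patterning genes of uterine stroma. PDGFRB had 36 reads and PRRX1 10, while TWIST1 had 7, FAP 4, MEOX2 4 and TCF21 4. THY1, CD34, TBX18 and S100A6 were listed at 0. DES, shared with the muscle list, was the highest of this list by reads.

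**Figure D4:**
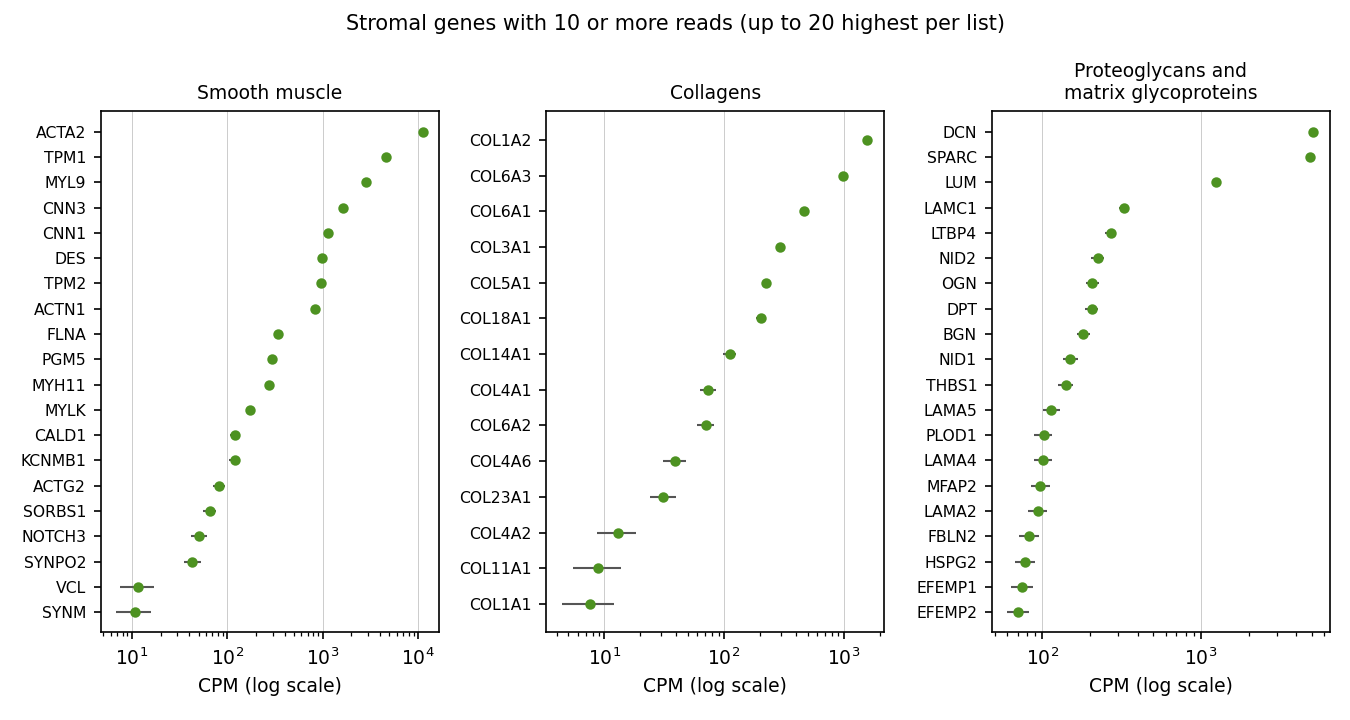
CPM (log scale) of the highest stromal genes with 10 or more reads in 3 lists, each point a gene with its exact 95% Poisson interval. ACTA2 lies at 11301 CPM against 82.0 for ACTG2, and COL1A2 at 1568 against 7.58 for its partner COL1A1.

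The receptors for oestrogen and progesterone were in the top 10% of lines by reads. ESR1, the oestrogen receptor, had 2145 reads, or 956 CPM (95% interval 916 to 997), and PGR, the progesterone receptor, 653 reads, or 291 CPM (95% interval 269 to 314). NR2F6 (296) and NR2F2 (272) were the other receptors in the top 10%. Of 34 receptor lines, 15 (44.1%, near the 46.2% of all symbol lines) had 10 or more reads and 11 were listed at 0, and the median was 2.45 CPM. PGRMC1, a haem-binding membrane protein first linked to progesterone, stood at 144 CPM and PGRMC2 at 69.1. NR3C1, the glucocorticoid receptor, stood at 42.3 and NR3C2, the mineralocorticoid receptor, at 27.6. The retinoic acid receptors RARB and RARG stood at 34.3 and 29.9, and the lipid-sensing receptors PPARA and PPARD at 99.8 and 39.2. NR1D2 (20.1), NR4A3 (8.91) and NR5A2 (6.24) completed those with 10 or more reads. ESR2, the second oestrogen receptor, was listed at 0, as was RXRA, the common partner of many of these receptors. Per kb, ESR1 stood at 639, NR2F6 at 200, PGRMC1 at 117 and NR2F2 at 86.8 CPM per kb.

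Partners of the receptors had 21 of 27 lines at 10 or more reads (77.8%, against 46.2% of all symbol lines). The chaperone genes FKBP4 (1225 CPM), PTGES3 (477) and HSP90AA1 (330) hold steroid receptors ready for ligand. The corepressor NCOR1 (82.0) and the coactivators NCOA3 (52.1) and NCOA2 (32.5) stood lower by reads. SGK1, a kinase induced by steroids, stood at 410 CPM. FKBP5, a target of glucocorticoid and progesterone, had 6 reads, and GREB1, an oestrogen target in other mammals, had 4.

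Genes known to respond to sex steroids in other mammalian uteri had a median of 2.45 CPM. Of their 46 lines, 18 (39.1%, against 46.2% of all symbol lines) had 10 or more reads. DCN, already described in the matrix, gave most of the reads of this list. MSX1, a homeobox factor of uterine epithelium, stood at 643 CPM (897 CPM per kb) and MSX2 at 122. CCND1 (cyclin D1) stood at 207, SMO (the hedgehog signal transducer) at 188, LPAR3 (a lysophospholipid receptor) at 111 and CEBPD at 104. FOXO1, a factor of decidual stroma, stood at 41.5. HHIP (26.7), FST (29.9), MAOA (57.9), GATA6 (26.3), MYC (17.4) and FOXO3 (13.4) were also above 10 reads, HOXD10 had 27 reads and EGFR 11. IHH and LIF, signals of the implanting uterus in placental mammals, had 1 read each, and IGFBP1, PRL, IL6ST and WNT7A were listed at 0.

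Of 24 lines of steroid- and retinoid-converting genes, 7 (29.2%, against 46.2% of all symbol lines) had 10 or more reads and 13 were at 0, among them CYP11A1 and CYP19A1 (aromatase). HSD17B12, an enzyme shared with fatty acid elongation, stood at 150 CPM, HSD17B4 (peroxisomal) at 28.5 and HSD17B11 at 15.2. HSD17B10, a mitochondrial member, had 36 reads. Retinoid genes of the list were ALDH1A3, which makes retinoic acid, at 93.6 and CRABP1, a carrier of retinoic acid, at 24.1.

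Of 44 lines of peptide and thyroid hormone genes, 17 (38.6%, against 46.2% of all symbol lines) had 10 or more reads. In the top 10% was 1, and 20 were at 0. IGFBP4, which binds insulin-like growth factors, stood at 321 CPM (95% interval 298 to 346), IGFBP3 at 35.2, IGFBP7 at 13.4 and IGFBP5 at 8.02. INSR, the insulin receptor, stood at 89.6, IGF1R at 10.7 and GHR, the growth hormone receptor, at 33.4. The relaxin receptor gene RXFP1 stood at 180 CPM (95% interval 163 to 199). The endothelin receptors EDNRA and EDNRB stood at 191 and 48.1, and RAMP3 at 7.13. DIO2, which activates thyroid hormone, stood at 88.3 CPM (173 CPM per kb) and CRYM, which binds thyroid hormone in the cytosol, at 155. ADIPOR1, an adiponectin receptor, stood at 197, PTHLH (parathyroid hormone-related protein) at 13.4 and TRIP12, a ubiquitin ligase named for binding to the thyroid receptor, at 121. The oxytocin receptor gene OXTR had 1 read, and the prolactin receptor gene PRLR and the vasopressin receptor genes AVPR1A, AVPR1B and AVPR2 were at 0.

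Prostaglandin genes had 7 of 20 lines at 10 or more reads (35.0%, against 46.2% of all symbol lines) and 10 at 0. PTGS1 and PTGS2, the cyclooxygenases, were listed at 0, and PTGES2, PTGIS and PTGES, which act after them, stood at 27.2, 18.7 and 5.35 CPM. PTGFRN, a membrane protein that binds the prostaglandin F receptor, stood at 91.8, PTGR2 (a prostaglandin reductase) at 9.81 and the receptor gene PTGER4 at 4.90. PTGES3, counted above as a receptor chaperone, gave most of the reads of this list. Across the hormone lists 84 of 189 lines (44.4%) had 10 or more reads, against 46.2% of lines with a gene symbol, and 11 (5.82%) reached the top 10%, against 4.96%.

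**Figure D5:**
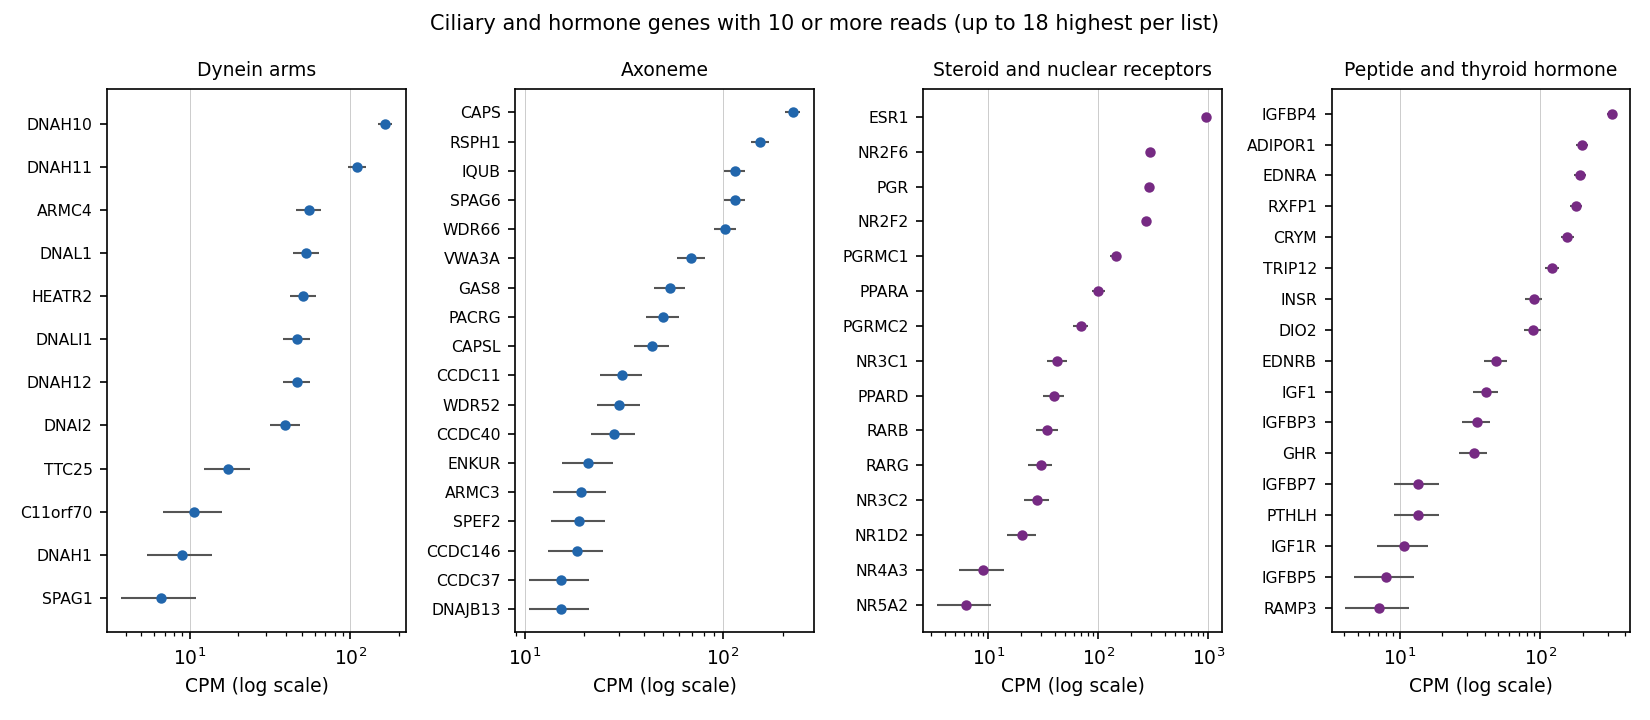
CPM (log scale) of the highest dynein arm, axoneme, nuclear receptor and peptide or thyroid hormone genes with 10 or more reads, each point a gene with its exact 95% Poisson interval. ESR1 stands at 956 CPM above the other receptors by reads, and RXFP1 and DIO2 at 180 and 88.3 CPM in the last panel.

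The labelled tissue was checked against epithelial and other markers. Epithelial identity genes had 19 of 43 lines at 10 or more reads (44.2%, near the 46.2% of all symbol lines) and 12 at 0. DSP (desmoplakin, of desmosomes) stood at 1237 CPM, PERP at 698, AP1M2 (an epithelial sorting adaptor) at 241 and OVOL2 at 141. The Müllerian duct and gland factors EMX2 (62.4), FOXA2 (57.5) and PAX2 (49.0) were present. The defining epithelial genes EPCAM, CDH1 and KRT7 had 1, 9 and 5 reads, ST14 and CLDN3 were listed at 0, and the simple keratins KRT8, KRT18 and KRT19 had no line. The count over the list thus did not set the epithelial genes apart from other lines. The tissue label is the submitters' own, and this check did not settle it.

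Markers of other cell types were read against 46.2% of symbol lines at 10 or more reads. Endothelial genes had 4 of 15 lines at 10 or more reads (FLT4 at 26.7 CPM, CDH5 at 20.1, CLDN5 at 16.9 and MMRN1 at 9.81), with VWF, KDR and TEK at 0. Leukocyte genes had 3 of 18 (CYBB at 14.7, KIT at 11.1 and CD74 at 4.90). The antibody heavy chain gene IGHM stood at 1228 CPM (95% interval 1182 to 1274), whereas the plasma cell genes IGJ, SDC1 and IRF4 were at 0 and TNFRSF17 had 1 read. DERL3, also on the plasma cell list, stood at 875 CPM. Markers of blood, embryo, ovary and nerve had 4 of 31 lines at 10 or more reads: WT1 (77.1), STMN2 (74.0), TUBB3 (68.2) and the germ cell gene DDX4 (4.90). This count leaves out the haemoglobin line HBA_ORNAN (144 CPM), because list members were matched by plain symbol. The part of these cell types in the secretory and stromal values was not tested.

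Names ending in _ORNAN, UniProt entry names of platypus proteins, were carried by 54 lines, of which 20 had 10 or more reads and 21 were at 0. CAZA2_ORNAN, an actin-capping protein, led them at 400 CPM (95% interval 374 to 427). HBA_ORNAN, the haemoglobin alpha chain, stood at 144 CPM, while the red cell genes ALAS2 and SLC4A1 were at 0. CAV1_ORNAN (caveolin 1) stood at 102, MET_ORNAN (the hepatocyte growth factor receptor) at 65.5 and WNT2_ORNAN at 61.5, above the 27.6 CPM of WNT5A, the highest WNT ligand under a plain symbol. Q9XT02_ORNAN (156), O97876_ORNAN (150) and Q6SJ92_ORNAN (143) are names that the table does not explain, as are Q9N1T1_ORNAN (51.7), Q6B6N7_ORNAN (49.9) and Q5I4D3_ORNAN (37.9). All 13 mitochondrially encoded genes were listed under such names and together held 173 reads, or 77.1 CPM (0.0077% of reads). COX1_ORNAN was the highest of them at 26.3 CPM, followed by NU4M_ORNAN (9.81), COX3_ORNAN (8.47), CYB_ORNAN (8.02), ATP6_ORNAN (6.69) and NU2M_ORNAN (6.24). The part played by read handling and gene models in this small share was not tested, so it is not taken as the level of mitochondrial RNA in the tissue.

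Of the named lines, 2021 carried a name found in neither the dog nor the armadillo table, and 527 of these (26.1%) had 10 or more reads. The 2021 lines comprised the 54 entry names, 731 platypus model names that identify no gene, and 1236 gene symbols. Of these symbols, 212 (17.2%, against 46.2% of all lines with a gene symbol) had 10 or more reads, and 884 were at 0. These 212 included general cell genes such as ACTB, RPL13A, RPLP0, GAPDH and EIF4A1, and also ITM2A (907 CPM), ID2 (769), SCFD1 (1411) and GPX4 (576). PGR (291) and the cytokine gene IL24 (304) also carried such symbols and were picked after their values were seen. A symbol missing from another table says nothing about expression in that species, since 16 of the 212 occurred there as part of a dog entry name.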

How the data were processed

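Gene counts of 1 messenger RNA library from pregnant platypus endometrium were analysed. The platypus and armadillo values are whole read counts per gene, as the authors deposited them. The dog table gives an estimated count per gene and a length-scaled score, as the authors deposited them. Its values served only for gene lengths. The dog and armadillo gene names served to find platypus names missing from both tables. Bowtie is named in the submitters' processing notes, while its version, the build, the handling of multiply mapped reads and the strand setting were not given in the sources used here. CPM was computed as reads of a line per 1000000 reads of the column. Lengths of dog gene models were solved from the dog score and reads, and stood in for platypus lengths. Intervals were exact Poisson or Clopper-Pearson intervals at 95%, for counting error only. The Poisson intervals were run on simulated Poisson counts, which checks the code and cannot measure any other error. The minimum was 10 reads. The members and the 29 gene lists were chosen with earlier results of these data known. The text names up to 8 of the highest genes per list, the 30 highest named lines, the 20 highest entry names and 15 symbols missing elsewhere. Further genes, including those at or near 0 and list members beyond these, were picked after their values were seen. No per-sample column was left unmapped. Python 3.11.15, pandas 2.3.3, numpy 2.4.6, scipy 1.17.1 and matplotlib 3.10.9 were used. Alternatives were other minimum reads, other denominators and division by dog gene length. A few genes are not reported here.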

Additional observations from a re-analysis of the deposited data

How the results depend on the processing

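With a minimum of 5, 20 or 1 reads, 8486, 6059 or 10653 lines passed in place of 7334. With reads of named lines as the denominator, the 10 highest lines held 15.6% in place of 12.1%. The number of ciliary genes in the top 10% was 3, and became 5, 1 and 10 with minimums of 5, 20 and 1 reads. With a minimum of 1 read, hormone genes in the top 10% were 19 in place of 11. Per kb of dog gene model, an alternative chosen after seeing the data, stromal genes in the top 10% were 11 in place of 24; among the 57 stromal genes with a length the count by reads was 17. Leaving the 10 highest lines or the ribosomal genes out of the total multiplied each remaining CPM by 1.14 or 1.11. No paired analysis was possible because each species had 1 library. Lengths from the reference table were not run, since its only length is the genomic span of dog genes with introns. With 1 library, no spread between animals can be given, and lines under 10 reads are limited by depth.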

Other observations

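Several gene families outside the lists above were described after their values were seen, beside a background of 46.2% of symbol lines with 10 or more reads. Annexins, which bind membranes in the presence of calcium, had 6 of 8 lines at 10 or more reads, with ANXA6 at 2858 CPM, ANXA2 at 1924 and ANXA5 at 902. S100A11, a relative of S100A13, stood at 429 CPM. Among 21 lines with an interleukin symbol, including the receptor genes IL7R and IL21R, IL24 was the 1 with 10 or more reads. HOX genes, which pattern the body axis, had 13 of 27 lines at 10 or more reads (48.1%, near that background), with HOXA5 at 102 CPM, HOXB3 at 79.3, HOXB8 at 74.9 and HOXB7 at 71.8, and HOXA13, HOXB13 and HOXC13 listed at 0.

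Ion transport genes included the sodium pump subunits ATP1B3 (161 CPM) and ATP1B1 (135). SCNN1A, a subunit of the epithelial sodium channel, stood at 189 CPM, whereas its partners SCNN1G and SCNN1B had 5 and 0 reads. Of 240 lines with a solute carrier symbol, including SLC9A3R1 and SLC7A6OS, which are not carriers, 91 (37.9%) had 10 or more reads, led by SLC1A1. The carbonic anhydrase-related gene CA8, whose protein lacks the enzyme activity, stood at 643 CPM.

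Subunits of 1 complex could differ widely in reads. All 11 EIF3 lines had 10 or more reads and, among those with a length, spread from 53.0 CPM per kb for EIF3A to 921 for EIF3E. Proteasome genes had 23 of 30 lines (76.7%) at 10 or more reads, with 5 at 0. The chaperonin genes CCT3 and CCT2 stood at 952 CPM and 15 reads, with CCT7 at 0, and the guanylate cyclase partners GUCY1A3 and GUCY1B3 at 858 CPM and 23 reads. The part played by the gene models in these differences was not tested.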
